A study of Homo sapiens with 16 samples.

Results

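A549 cells treated with palbociclib were compared with untreated A549 cells over all expressed genes. A549 is an established human lung adenocarcinoma line. Palbociclib is a small-molecule inhibitor of the cyclin-dependent kinases CDK4 and CDK6. The comparison used the 4 libraries, of 16 in the series, that the labels place in these groups. These were 2 untreated libraries, which carry no drug, and 2 libraries from cells given 2 µM palbociclib for 16 h with no indisulam. The other libraries came from A549 given indisulam or both drugs and from the breast cancer line SUM159 under the same 4 conditions. All members of each group are 1 cell line in culture. The study calls the duplicates technical, so p-values here measure only the spread between these libraries and not between independent cultures.

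CDK4 and CDK6 pair with D-type cyclins in G1 and phosphorylate the retinoblastoma protein RB. Unphosphorylated RB holds E2F transcription factors at promoters of genes for DNA replication, and phosphorylation frees them. Genes of mitosis are switched on later in the cycle by B-MYB and FOXM1 with the MuvB core, and in resting cells the same core forms the repressive DREAM complex with the RB relatives p107 and p130. E2F proteins bind the E2F motif, and MuvB binds the cell cycle genes homology region, or CHR.

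Of 58676 genes in the files, 15744 passed the filter on low counts and were tested, and 6796 (43.2%) had an adjusted p-value under 0.05 in edgeR's quasi-likelihood test. A gene is called changed below when it met that threshold. The calls held 3471 genes that rose (22.0% of those tested) and 3325 that fell (21.1%). These shares are the background for the counts of list members below. With libraries scaled by total count in place of the trimmed mean of M-values (TMM), 4305 genes rose and 2594 fell, so the balance between rises and falls depended on the scaling, while the median log2 change moved by 0.06. At a change of at least 2-fold, 437 genes fell (2.78%) and 394 rose (2.50%). The palbociclib libraries held 20745038 and 34075588 gene counts, against 19967366 and 18306636 in the untreated ones. Levels are CPM, counts scaled by TMM-adjusted library size to a common total, and changes are log2 changes of palbociclib minus untreated, with their standard error (SE).

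The falls and the rises of 2-fold or more lay at different levels of expression. Among the 4216 genes with a mean of 50 CPM or more, 130 fell by 2-fold or more (3.08%) and 3 rose by as much (0.0712%). Among the 2268 tested genes under 1 CPM, 63 fell (2.78%) and 170 rose (7.50%). The low-count filter asked for enough counts in 2 of the 8 A549 libraries, so such a gene could be tested through 1 group alone. What the filter and the unequal depths of the libraries add to these shares was not tested. Long noncoding RNAs gave 108 of the rises (6.16% of 1753 tested) and 31 of the falls (1.77%). Protein-coding genes gave 265 rises (2.03% of 13085 tested) and 376 falls (2.87%). The plot of change against level shows a group of well expressed genes far below the line of no change and no counterpart above it.

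**Figure D1:**
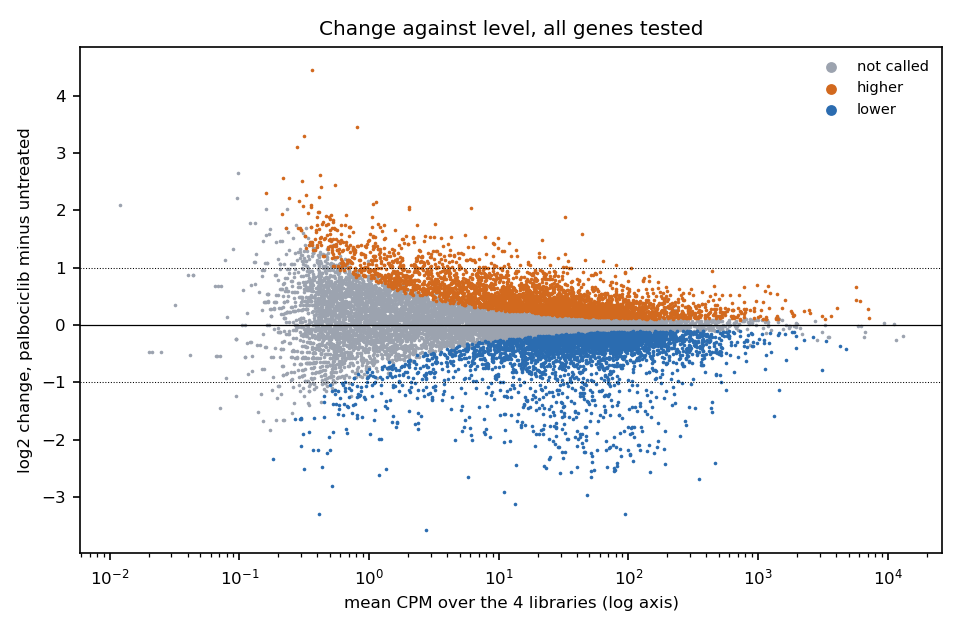
Log2 change of palbociclib minus untreated (vertical axis) against mean CPM over the 4 libraries (horizontal log axis), 1 point per gene tested, coloured by call in edgeR's test. Dotted lines mark 2-fold changes. At 50 CPM or more, 130 genes lay past the lower line and 3 past the upper one.

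The labelled cell line was checked against marker genes. All 6 epithelial markers were present, and their summed level was 11892 and 11628 CPM in untreated libraries and 14964 and 15814 CPM with palbociclib. The lowest of them, EPCAM, was at 26.1 and 24.4 CPM untreated. Mesenchymal markers were present too, with VIM at 930 and 923, CDH2 at 43.8 and 44.5 and ZEB1 at 34.8 and 36.8 CPM untreated. The aldo-keto reductases AKR1B10, AKR1C1 and AKR1C2 and NQO1, high in A549 through loss of KEAP1 function, summed to 11062 and 10814 CPM untreated and 12987 and 13754 CPM treated. Markers of alveolar cells were largely missing. SFTPA1 and SFTPB had no count in any of the 4 libraries, NKX2-1 stayed at or below 0.232 CPM, and ABCA3 was the only one of 6 above 1 CPM. CDKN2A, deleted in A549, was listed at 2.48 and 1.35 CPM untreated and 2.15 and 1.60 CPM treated, and its exons overlap the antisense gene CDKN2B-AS1. The source of these reads was not tested. Of 5 leukocyte markers CD3E and MS4A1 had no count and CD14, at 5.13 to 6.61 CPM, was the only one above 1 CPM. Of 5 fibroblast markers COL1A2 and COL3A1 had no count and COL1A1, at 3.31 to 4.26 CPM, was the only one above 1 CPM. Neither was called. PDGFRB was called higher, at 18 counts over the 4 libraries. None of 4 endothelial markers reached a mean of 1 CPM. The part of these markers in the results was not tested.

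Genes of DNA replication and mitosis fell in nearly every case. Over 8 lists (origin licensing and firing, replication fork, dNTP synthesis, recombination and Fanconi repair, chromatin copying, mitotic kinases and the anaphase-promoting complex, spindle and cytokinesis, condensin and cohesin), 209 of 210 genes were tested and 194 fell. Of these, 150 fell by 2-fold or more, which is 34.3% of all genes that fell so far. Their median log2 change was -1.45, against 0.03 over all genes tested. In bulk RNA, fewer cells in S phase or mitosis and less RNA of these genes per cell cannot be told apart.

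Before the values, promoter sequences of genes that fell are shown, because the share of promoters with an E2F or a CHR match differed between licensing or fork genes and spindle genes. They are the 100 bases before the RefSeq start site on GRCh38.p14, 5′ to 3′ on the gene's strand, with each E2F or CHR match in capitals. The first 4 are mitotic or proliferation genes with CHR matches: PLK1 at chr16:23678789-23678888 (plus strand), GTSE1 at chr22:46296770-46296869 (plus), CKAP2L at chr2:112764610-112764709 (minus) and MKI67 at chr10:128126424-128126523 (minus). The next 4 are replication or E2F network genes with E2F matches: GINS2 at chr16:85688955-85689054 (minus), RBL1 at chr20:37095998-37096097 (minus), E2F1 at chr20:33686386-33686485 (minus) and PCNA at chr20:5126623-5126722 (minus). KIF20A at chr5:138179012-138179111 (plus), with the largest fall among genes of at least 5 CPM, is shown because it has neither match.
PLK1: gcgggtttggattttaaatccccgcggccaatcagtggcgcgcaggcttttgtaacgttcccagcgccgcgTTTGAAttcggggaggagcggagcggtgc
GTSE1: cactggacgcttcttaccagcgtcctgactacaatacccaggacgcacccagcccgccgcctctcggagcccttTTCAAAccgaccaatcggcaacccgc
CKAP2L: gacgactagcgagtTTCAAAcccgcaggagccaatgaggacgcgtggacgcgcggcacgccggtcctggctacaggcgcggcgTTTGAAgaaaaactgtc
MKI67: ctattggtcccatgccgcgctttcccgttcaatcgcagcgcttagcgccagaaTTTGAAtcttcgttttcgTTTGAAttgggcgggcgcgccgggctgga
GINS2: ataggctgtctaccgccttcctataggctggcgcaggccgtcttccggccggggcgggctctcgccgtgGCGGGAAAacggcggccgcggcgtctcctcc
RBL1: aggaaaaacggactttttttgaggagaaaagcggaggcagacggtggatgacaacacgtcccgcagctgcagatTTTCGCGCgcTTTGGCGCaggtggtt
E2F1: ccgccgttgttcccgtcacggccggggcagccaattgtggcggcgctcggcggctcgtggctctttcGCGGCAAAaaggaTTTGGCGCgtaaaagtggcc
PCNA: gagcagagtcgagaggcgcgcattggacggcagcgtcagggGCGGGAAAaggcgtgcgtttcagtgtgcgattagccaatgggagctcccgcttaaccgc
KIF20A: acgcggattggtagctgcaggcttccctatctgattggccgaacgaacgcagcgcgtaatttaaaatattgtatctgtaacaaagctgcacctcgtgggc

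The motifs searched, on both strands, were TTTCCCGC, TTTGGCGC, TTTGCCGC and TTTCGCGC for E2F, TTTGAA and TTCGAA for CHR, and CCAAT, the box bound by NF-Y. The windows ran from 250 bases before to 50 bases after the start. Of 27305 RefSeq windows, 3.33% held an E2F match, 16.6% a CHR match and 35.7% a CCAAT match, and of the 11421 windows matched to tested genes 5.13%, 11.3% and 36.5% did. Among the 312 windows of genes that fell by 2-fold or more, 17.6% held an E2F match, 37.5% a CHR match and 58.3% a CCAAT match. Among the 242 windows of genes that rose by 2-fold or more the shares were 1.24%, 15.3% and 33.9%. E2F matches were in 10 of 21 licensing windows (47.6%) and 9 of 24 fork windows (37.5%) but in 3 of 41 spindle windows (7.32%), whereas CHR matches were in 33 of 41 spindle windows (80.5%) and in no fork window. E2F and CHR matches were in 17.2% and 13.8% of recombination and Fanconi windows, and each was in 14.3% of dNTP synthesis windows. A match is a description of the letters and does not show binding.

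**Figure D2:**
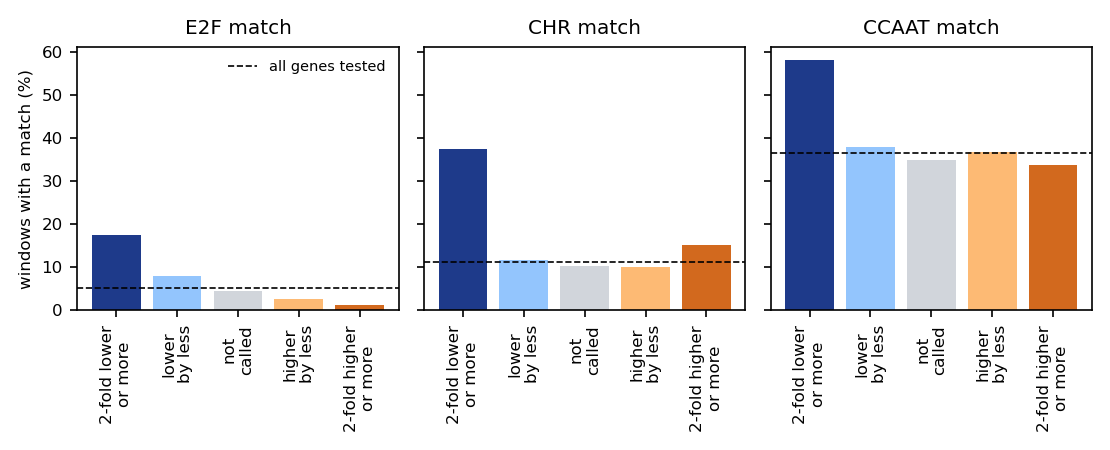
Share of promoter windows (%, vertical axis) that held an E2F, CHR or CCAAT match, by class of change in A549, with the share over all tested genes as a dashed line. E2F matches were in 17.6% of windows of genes that fell 2-fold or more and in 1.24% of those that rose as much.

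Mitotic genes fell furthest. All 45 genes of the spindle, kinetochore and cytokinesis list fell, with a median log2 change of -2.06, and all 26 genes of the mitotic kinase list fell, with a median of -1.95. The plot of change by gene list shows both sets wholly below the median of all genes.

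KIF20A, a kinesin needed for cytokinesis, was at 169 and 174 CPM in untreated cells and at 17.8 and 17.1 CPM with palbociclib. This log2 change of -3.30 ± 0.05 (SE) had an adjusted p-value of 1.75e-14 in edgeR's test. The groups lay far apart, and KIF20A led the genes of at least 5 CPM that fell, although its exons overlap BRD8 and CDC23 on the other strand. CDCA3, which serves entry into mitosis, fell from 84.1 and 86.1 CPM to 9.99 and 11.5 CPM. SPC25, of the NDC80 kinetochore complex, fell from 19.7 and 19.0 CPM to 2.68 and 2.52 CPM. Untreated and treated libraries did not overlap for either, and the log2 changes were -2.97 and -2.90.

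PLK1, the polo-like kinase of mitotic entry, was at 257 and 244 CPM untreated and 42.5 and 42.3 CPM treated (log2 change -2.57 ± 0.05 SE, edgeR adjusted p = 5.25e-14). NEK2, a centrosome kinase, was at 95.3 and 91.1 CPM untreated and 15.6 and 16.6 CPM treated. The duplicates of each gene differed little beside the distance between groups. GTSE1, a microtubule-binding protein of G2 and mitosis, fell from 61.9 and 61.7 CPM to 10.9 and 10.1 CPM. CKAP2L, a spindle protein, fell from 49.6 and 51.6 CPM to 8.27 and 8.67 CPM. DLGAP5 and KIF2C, which act on spindle microtubules, both changed by -2.54 on the log2 scale.

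MKI67, the proliferation antigen Ki-67 that coats mitotic chromosomes, was at 549.1 and 654 CPM untreated and at 101 and 87.1 CPM with palbociclib. Its log2 change was -2.68 ± 0.08 (SE). The untreated duplicates of MKI67 differed by more than those of PLK1, yet the groups did not overlap. TOP2A, the topoisomerase that untangles sister chromatids, fell from 751 and 807 CPM to 146 and 147 CPM. The condensin I subunits NCAPH and NCAPG changed by -2.21 and -2.12 on the log2 scale. In the condensin, cohesin and topoisomerase list 19 of 20 genes fell, and TOP2B, the isoform that does not depend on proliferation, was at 253 and 260.5 CPM untreated and 251 and 235 CPM treated (edgeR adjusted p = 0.185).

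**Figure D3:**
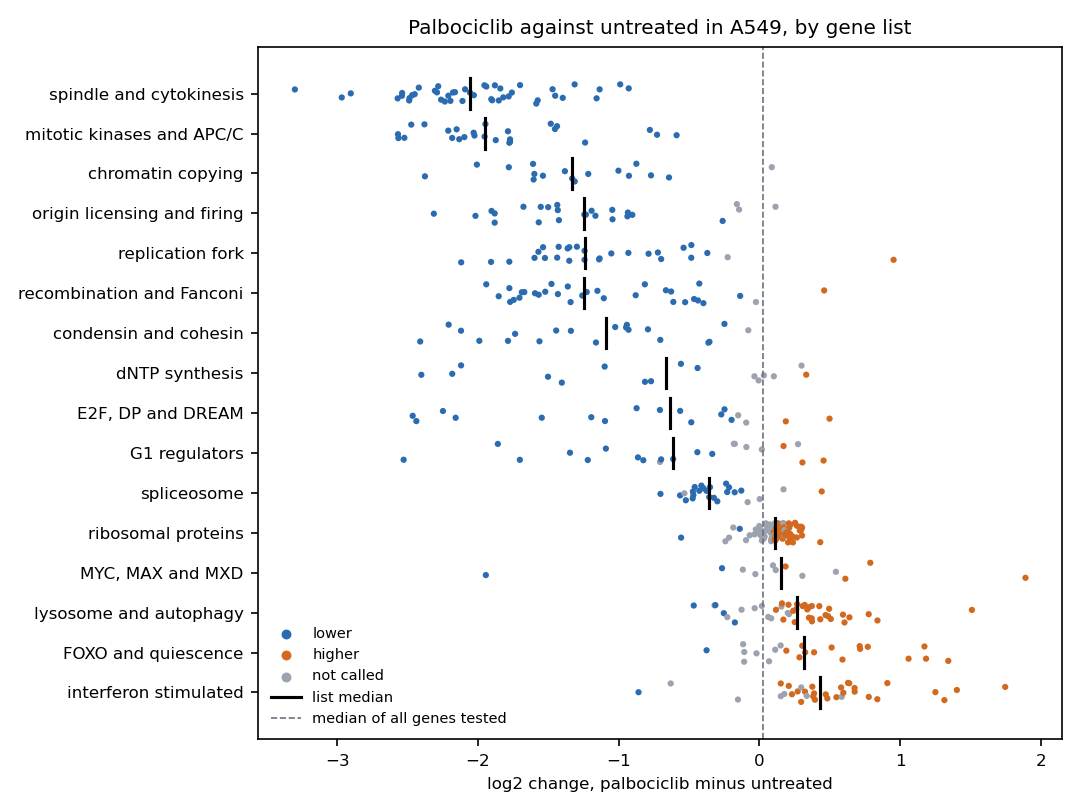
Log2 change of palbociclib minus untreated for each tested member of 16 gene lists, coloured by call, with the list median as a black bar and the median of all genes tested as a dashed line. Members of the spindle and mitotic kinase lists were all called lower, while the interferon, FOXO and lysosome lists lay mostly to the right.

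Among the replication genes, 22 of 25 licensing and firing genes and 26 of 28 fork genes fell, both with a median log2 change of -1.24. GINS2, of the replicative helicase, was at 53.1 and 51.7 CPM untreated and 10.5 and 10.6 CPM treated. CDC45, its partner in that helicase, fell from 43.6 and 40.0 CPM to 9.90 and 10.6 CPM. Both genes lost most of their level in both libraries. TICRR, which fires origins, changed by -1.90, CLSPN, the checkpoint adaptor claspin, by -2.12, PRIM1, the primase, by -1.91 and POLE2, of polymerase epsilon, by -1.78. PRIM1 shares exon sequence with NACA on its own strand, so its level is uncertain.

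Not every replication gene fell. The origin recognition genes ORC2, ORC4 and ORC5 were not called, with log2 changes of -0.16, 0.11 and -0.14. POLE4, an accessory subunit of polymerase epsilon, changed by -0.22 and was not called. POLD4, the small subunit of polymerase delta, rose from 7.60 and 6.93 CPM to 13.2 and 14.8 CPM, which is 0.95 ± 0.12 (SE) on the log2 scale, with an adjusted p-value of 2.01e-05 in edgeR's test.

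In dNTP synthesis 10 of 16 genes fell and 1 rose. RRM2, the cell-cycle subunit of ribonucleotide reductase, went from 136 and 141 CPM to 25.0 and 27.2 CPM, a log2 change of -2.40 ± 0.06 (SE). Its stress-induced relative RRM2B was at 53.8 and 58.3 CPM untreated and 60.5 and 59.9 CPM treated, and was not called. The thymidylate synthase TYMS changed by -2.18, and overlaps ENOSF1 and TYMSOS on the other strand. The mitochondrial thymidine kinase TK2 was the gene that rose, by 0.33 on the log2 scale.

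Of 32 recombination and Fanconi genes 30 fell, with a median log2 change of -1.24. EXO1, an end-resecting nuclease, and BRIP1, the FANCJ helicase, changed by -1.85 and -1.78. FANCF, of the Fanconi core complex, rose by 0.46 and overlaps GAS2. RAD50 was not called, with a log2 change of -0.02. In the chromatin copying list 16 of 17 genes fell. They included HMGB2, a chromatin protein (-2.38), H2AX, the histone variant of DNA damage marking (-2.01), and EZH2, the methyltransferase of Polycomb repressive complex (-1.78). The exception was ASF1A, a histone chaperone, at 30.3 and 31.6 CPM untreated and 32.5 and 33.3 CPM treated.

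Of 21 regulators of G1 tested, 12 fell and 3 rose. CDK6, one of the drug's targets, was at 74.4 and 78.2 CPM untreated and 79.0 and 75.5 CPM with palbociclib, so its groups overlapped. CDK4, the other target, fell from 183 and 183 CPM to 137 and 152 CPM, a log2 change of -0.33 ± 0.05 (SE). The D-type cyclins that activate them rose. CCND1 went from 429 and 417 CPM to 577 and 583 CPM (log2 change 0.46 ± 0.04 SE) and CCND3 from 275 and 261 CPM to 329 and 334 CPM (0.31 ± 0.04 SE). The changes of both had adjusted p-values in edgeR's test of 4.84e-07 and 5.62e-05. CCND2 was near 0, with no count in the untreated libraries.

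Cyclin A2, cyclin E2 and CDK2 fell. CCNA2, cyclin A2 of S phase and G2, went from 141 and 130 CPM to 22.8 and 24.0 CPM. CCNE2, cyclin E2, went from 12.7 and 11.4 CPM to 3.63 and 3.10 CPM. CCNE1, cyclin E1, was at 25.1 and 26.9 CPM untreated and 22.4 and 23.3 CPM treated and missed the threshold (edgeR adjusted p = 0.0665). Cyclin E1 was called lower with libraries thinned to equal depth (edgeR adjusted p = 0.0166) and with only the 4 libraries (0.0364). CDK2 changed by -1.22 and CDC25A, the phosphatase that activates it, by -1.35. CCNA2, CCNE2 and CDK2 each overlap a gene on the other strand (EXOSC9, INTS8 and PMEL).

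The inhibitors did not move as a class. CDKN1A, which encodes p21, was at 37.6 and 32.7 CPM untreated and 29.2 and 32.8 CPM treated, with overlapping groups and an edgeR adjusted p-value of 0.079. It was called lower without palbociclib replicate 2 (edgeR adjusted p = 0.0394), without untreated replicate 2 (0.0285), with only the 4 libraries (0.0462) and with a replicate block of crossed numbers (0.032). CDKN1B, p27, fell by 0.44 on the log2 scale, CDKN2C, p18, fell by 1.09 and CDKN2D, p19, fell by 0.82. SKP2, the F-box protein that marks p27 for degradation, and its cofactor CKS1B changed by -0.70 and -0.86. CDKN1C, CDKN2A and CDKN2B were tested at low levels and not called.

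In the pocket protein family RB1 fell from 77.3 and 80.0 CPM to 51.3 and 51.6 CPM (log2 change -0.61 ± 0.05 SE). RBL1, p107, fell from 41.6 and 43.3 CPM to 14.2 and 12.2 CPM. RBL2, p130, which pairs with DREAM in resting cells, rose from 76.01 and 74.96 CPM to 85.5 and 84.6 CPM, which is 0.17 ± 0.05 (SE) on the log2 scale, with an adjusted p-value of 0.0116 in edgeR's test. RBL2 lost its call with DESeq2 (adjusted p = 0.068) and without palbociclib replicate 1 (0.0504), untreated replicate 1 (0.0574) or untreated replicate 2 (0.0821).

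**Figure D4:**
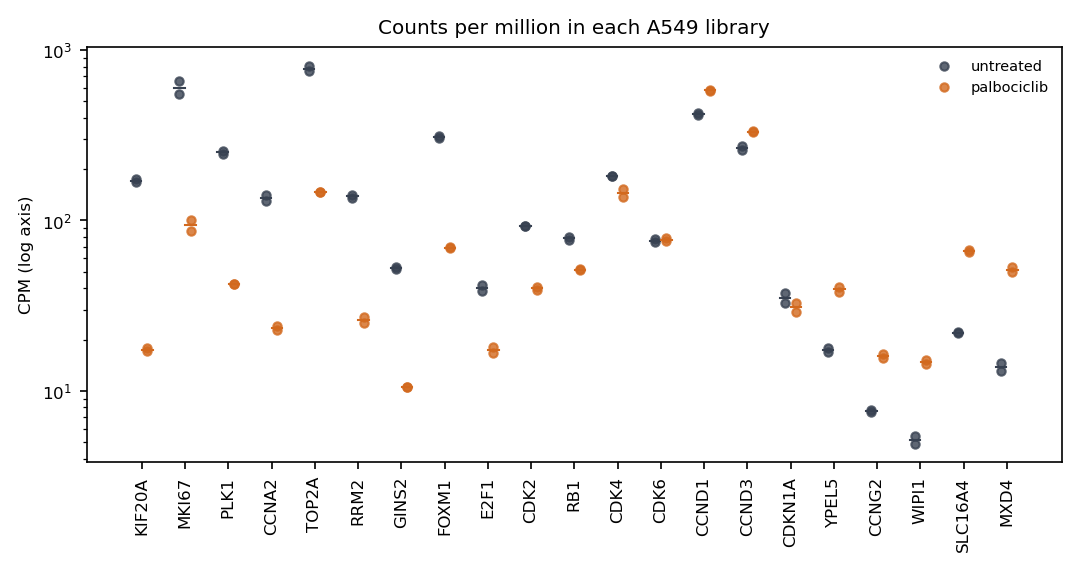
CPM in each A549 library (log axis) for 21 genes, 2 untreated and 2 palbociclib libraries per gene, with a bar at each group mean. KIF20A to RB1 and CDK4 lay lower with palbociclib, CDK6 and CDKN1A overlapped, and CCND1, CCND3 and the last 5 genes lay higher.

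Of 18 genes of the E2F family and the MuvB partners, 14 fell and 2 rose. The atypical repressors E2F7 and E2F8 fell furthest, E2F7 from 37.0 and 38.3 CPM to 7.17 and 6.58 CPM and E2F8 from 22.3 and 23.4 CPM to 4.92 and 3.74 CPM. Among the activators E2F2 changed by -1.55, E2F1 by -1.19 and E2F3 by -0.20, the last not called without palbociclib replicate 2, without untreated replicate 2 or with total-count scaling. The repressor E2F4 changed by -0.25, and E2F6 (-0.15) was not called. E2F5 and the dimer partner TFDP2 were the 2 that rose, by 0.19 and 0.50, although E2F5 (edgeR adjusted p = 0.0459) lost its call in 8 of 12 other settings, each of the 4 that leave out a library among them, whereas the other partner, TFDP1, changed by -0.56.

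MYBL2, which encodes B-MYB, went from 173 and 167 CPM to 34.4 and 36.7 CPM. FOXM1, the forkhead factor of G2 and mitosis, went from 314 and 305 CPM to 68.7 and 69.9 CPM, and overlaps ITFG2 on the other strand. Neither gene's groups overlapped. Of the MuvB core, LIN9, LIN52 and LIN54 changed by -0.71, -0.87 and -0.48 and RBBP4 by -0.27, while LIN37 (-0.09) was not called.

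Among abundant transcripts by length-scaled level, the 5 highest that changed by 2-fold or more were 4 tubulins and PCNA. TUBA1B was at 2034 and 1982 CPM untreated and 654 and 682 CPM treated. TUBB was at 2017 and 1992 CPM untreated and 901 and 926 CPM treated. The other tubulins, TUBB4B and TUBA1C, changed by -1.45 and -1.13 on the log2 scale, so all 4 subunit genes fell. Tubulin genes are close copies of each other, which makes the split of reads between them uncertain. PCNA, the sliding clamp of replication, changed by -1.36. The nuclear lamina genes LMNB1, TMPO and LMNB2 changed by -2.09, -1.35 and -1.28.

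Other genes fell outside these lists. PIF1, a DNA helicase, went from 22.9 and 25.3 CPM to 2.92 and 2.64 CPM, a log2 change of -3.13 ± 0.14 (SE). NEURL1B, an E3 ubiquitin ligase, and IQGAP3, a scaffold protein, both changed by -2.65. In the spliceosome list 20 of 25 genes fell and 1 rose, with a median log2 change of -0.36, a smaller shift spread over most members. PTBP1, the polypyrimidine tract binding protein, changed by -0.70, SNRPD1 by -0.56 and SNRPB by -0.52.

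Among genes of at least 5 CPM the largest rises were smaller than the largest falls. MXD4, a MAX partner that opposes MYC, went from 14.6 and 13.1 CPM to 49.97 and 52.99 CPM. Its log2 change was 1.89 ± 0.08 (SE, edgeR adjusted p = 8.30e-11). SLC16A4, a monocarboxylate transporter family member, went from 22.1 and 21.8 CPM to 66.8 and 64.9 CPM and overlaps LAMTOR5-AS1 on the other strand. Both stood clear of the untreated duplicates. In the network of MYC and MAX, 4 of 12 genes rose and 2 fell. With DESeq2 these counts were 3 and 2. The shares over all genes tested were 22.0% for rises and 21.1% for falls. MXI1 and MXD1, which also oppose MYC, rose by 0.61 and 0.79, MXD3 changed by -1.94 and overlaps RAB24 on its own strand, and MYC (0.10) was not called. The 4 MXD-type genes therefore did not move together.

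Genes linked to FOXO factors and quiescence rose in 14 of 22 cases and fell in 1, with a median log2 change of 0.32. Among all genes tested 22.0% rose and 21.1% fell. YPEL5, of the Yippee family, went from 17.0 and 17.9 CPM to 40.8 and 38.1 CPM. CCNG2, the unconventional cyclin G2, went from 7.70 and 7.55 CPM to 16.4 and 15.5 CPM. PDCD4, an inhibitor of translation, went from 97.6 and 94.6 CPM to 164 and 164 CPM. The groups of all 3 were separate. KLF4, a zinc finger factor, was the member that fell, with a log2 change of -0.37. YPEL2, outside that list, rose by 1.43.

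Lysosome and autophagy genes rose in 28 of 42 cases and fell in 4, with a median log2 change of 0.27. These counts stand beside 22.0% of all genes tested that rose and 21.1% that fell. WIPI1, which binds phosphoinositides on forming autophagosomes, went from 4.91 and 5.41 CPM to 15.2 and 14.3 CPM. FUCA1, a lysosomal fucosidase, rose by 0.84 and GABARAPL1, an autophagosome protein, by 0.78. GUSB, also a lysosomal enzyme, fell by 0.47, while CTSH (-0.31, edgeR adjusted p = 0.0402) lost its call in 8 of 12 other settings. The falls numbered 2 without palbociclib replicate 2 or untreated replicate 1.

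Interferon-stimulated genes rose in 26 of 34 cases, or 18 with DESeq2, with a median log2 change of 0.43. Over all genes tested 22.0% rose and 21.1% fell. The 36 listed genes summed to 1115 and 1137 CPM untreated and 1288 and 1261 CPM treated, and the largest rises lay at low levels. OAS2, which makes the activator of RNase L, went from 5.58 and 5.13 CPM to 10.2 and 10.0 CPM. IFIT2 went from 5.22 and 4.68 CPM to 8.03 and 9.48 CPM, and SAMD9L from 4.03 and 4.45 CPM to 7.89 and 6.82 CPM. These 3 were the largest rises of the list at 5 CPM or more. OAS3, a relative of OAS2 at a much higher count, went the other way, from 233 and 239 CPM to 129 and 131 CPM. Of 16 genes for MHC class I and antigen processing 4 rose (7 without palbociclib replicate 1, 2 without palbociclib replicate 2) and 2 fell, with HLA-E (0.55) and TAPBP (0.42) the largest rises.

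The p53 target list had 7 rises and 6 falls among 30 genes, which is near the 22.0% and 21.1% over all genes tested. TP53INP1, which acts in stress and autophagy, went from 4.50 and 5.64 CPM to 13.6 and 13.3 CPM, BTG2 rose by 0.51 and TP53I3 by 0.55. DDB2 and POLH, of DNA damage repair and bypass, changed by -0.82 and -0.80, and AEN, a nuclease, by -0.47. No single direction described the list.

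Among the 5 published senescence sets used in the study, rises outnumbered falls in each. The Casella set rose in 24 of 35 genes and fell in none, the Purcell set in 14 and 1 of 31, the Hernandez set in 15 and 2 of 28, the Hernandez SASP set in 8 and 2 of 19 and the Fridman set in 27 and 12 of 66. Their median log2 changes ran from 0.15 to 0.32, against 0.03 over all genes tested. The shares over all genes tested were 22.0% for rises and 21.1% for falls, and the Fridman falls were near the latter. The Purcell rises numbered 9 with DESeq2 or without palbociclib replicate 2, the Hernandez rises 7 and 8 in those fits, and the SASP rises 5 without untreated replicate 1. SLCO2B1, an organic anion transporter, changed by 1.15, CXCL8, a secreted chemokine, by 0.66 and PLAU, the urokinase, by 0.56. The Fridman and SASP sets also held falls, among them AXL, a receptor kinase (-0.55), and IGFBP4, a binding protein of insulin-like growth factors (-0.25).

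In the ERK output list 7 of 21 genes rose and 1 fell. DUSP6, a phosphatase that acts on ERK, went from 23.3 and 20.4 CPM to 46.0 and 42.4 CPM, whereas FOSL1, an AP-1 subunit, fell by 0.63. DEPTOR, an inhibitor of mTOR, rose by 1.26 and ERBB3, a receptor, by 0.59, in a receptor list with 6 rises and 6 falls of 32. In the BCL2 family 2 genes rose (BCL2L1 by 0.52, MCL1 by 0.34) and 4 of 14 fell, among them the death genes BCL2L11 (-0.64) and BAX (-0.39). The survival gene BCL2L2 (-0.24) was also among the falls. It lost its call with DESeq2 (adjusted p = 0.0647) and with total-count scaling (edgeR adjusted p = 0.0657). Its log2 change was -0.16 without untreated replicate 1. The TGF-beta and WNT list had 2 rises and 4 falls of 21, and the actin and SRF list 4 rises and 6 falls of 23. Over all genes tested 22.0% rose and 21.1% fell, and the receptor and actin counts were near those shares. Without untreated replicate 1 the falls of the BCL2 and of the TGF-beta and WNT lists numbered 2 each, as did those of the latter without palbociclib replicate 2.

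Metabolic and translation genes moved by less. Their counts stand beside 22.0% of all genes tested that rose and 21.1% that fell, and the glycolysis counts were near those shares. Cytosolic ribosomal protein genes rose in 41 of 85 cases with a median log2 change of 0.11, and between 15 and 59 of them rose under the other settings run (15 without palbociclib replicate 2 or untreated replicate 2, 22 without untreated replicate 1). Nuclear genes of the respiratory chain rose in 32 of 89 cases, or 13 to 44 under the other settings (13 without palbociclib replicate 2, 20 without untreated replicate 1, 15 without untreated replicate 2), and fell in 5, or 2 without untreated replicate 1. NRF2 targets rose in 10 of 25, with the transporter ABCC3 (0.67) and AKR1C1 (0.54) largest, and fell in 3. Cholesterol and fatty acid genes rose in 6 and fell in 9 of 32, glycolysis genes in 5 and 6 of 24, and stress and unfolded protein genes in 7 and 7 of 24. Without palbociclib replicate 2 the stress rises numbered 4 and the glycolysis rises 3. Without untreated replicate 1 the glycolysis falls numbered 3, the cholesterol falls 5 and the NRF2 target falls 1. Without untreated replicate 2 the stress rises numbered 4, the glycolysis falls 3 and the cholesterol falls 5. Without palbociclib replicate 1 the cholesterol falls numbered 5 and the NRF2 target falls 1. Genes of mitochondrial DNA were called lower in 2 of 13 cases, MT-ND5 (-0.36, not called with DESeq2 or without palbociclib replicate 2 or untreated replicate 2) and MT-ND6 (-0.32), and in 1 to 12 cases under the other settings, with 10 without palbociclib replicate 1.

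Epithelial and mesenchymal genes rose in 10 and fell in 4 of 26. This and the further list counts of this paragraph stand beside 22.0% of all genes tested that rose and 21.1% that fell. The zinc finger and cluster histone counts were below both shares. ITGB4, an integrin of hemidesmosomes, rose by 0.69 and KRT19 by 0.64, and VIM, vimentin, fell by 0.38. TJP1 (-0.25) and ITGA6 (-0.15), both genes of epithelial junctions or adhesion, fell as well. The markers EPCAM, CDH2 and ZEB1 were not called. The falls of that list numbered 1 without palbociclib replicate 2 and 2 without untreated replicate 2. Zinc finger genes of the ZNF series rose in 41 and fell in 45 of 397, which became 20 and 22 without untreated replicate 1, 27 and 23 without palbociclib replicate 2, 23 and 44 without palbociclib replicate 1, 62 and 29 with total-count scaling, and 15 and 26 with DESeq2. Protocadherins rose in 9 of 30, and in 1 of 30 with DESeq2, 4 without palbociclib replicate 1 or untreated replicate 2 and 5 without untreated replicate 1. Nuclear lamina genes fell in 10 of 13. Histone genes of the clusters, whose transcripts mostly lack poly(A) tails, were tested in 20 of 65 cases, with 3 rises (1 without untreated replicate 2) and 1 fall. Subunits of the CDK-activating kinase and TFIIH rose in 3 and fell in 1 of 9, and in 2 and 0 of 9 with DESeq2. There CDK7 (0.17 in the main fit, DESeq2 adjusted p = 0.19) and the fall, GTF2H1 (-0.18, DESeq2 adjusted p = 0.14), lost their calls. CDK7 also lost its call with no low-count filter and with only the 4 libraries. GTF2H1 also lost its call with total-count scaling and with thinned libraries. Without single libraries the log2 change of CDK7 ran from 0.13 to 0.21.

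Outside the lists the largest rises at 5 CPM or more included several noncoding genes. MVP-DT, a divergent transcript, went from 2.69 and 2.14 CPM to 9.56 and 10.3 CPM (log2 change 2.04 ± 0.15 SE). NRAD1 and IGFL2-AS1, also noncoding, rose by 1.58 and 1.49. Protein-coding genes among these were TRAPPC6A, a vesicle tethering subunit (1.54), TMEM150A (1.43), the cell adhesion gene DSCAML1 (1.37) and CDA, cytidine deaminase (1.36). All of these lay below 15 CPM in both untreated libraries.

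The response was then compared with that of SUM159, a triple-negative breast cancer line given the same dose for the same time. The difference between lines was tested as an interaction over all 16 libraries, and 2274 of 17764 genes differed (12.8%). Of those, 1715 had a higher log2 change in SUM159 and 559 a lower one. That split depended on the scaling and on single libraries. It was 1274 and 803 with total-count scaling, 739 and 1018 with DESeq2, and 728 and 2410 without palbociclib replicate 1, 628 and 1424 without palbociclib replicate 2, 667 and 2126 without untreated replicate 1 and 580 and 1651 without untreated replicate 2. The fit of both lines has its own scaling, which placed differences 0.10 above those between the fits of each line (median over genes of at least 5 CPM). Of the 209 replication and mitosis genes, 200 fell in SUM159 too, with a median log2 change of -1.18, but 124 had a log2 change above that in A549 and 4 below it, a split that ran to 77 and 14 without untreated replicate 1 and 78 and 16 without palbociclib replicate 1. Of the 45 spindle genes 41 had a higher log2 change in SUM159, where their median was -1.44, and of the 26 mitotic kinase genes 25 did, where it was -1.39. Under the other settings between 34 and 41 spindle genes and between 22 and 25 mitotic kinase genes did so, and none differed the other way. In the licensing list 8 of 25 were higher and 2 lower, which turned to 1 and 4 without untreated replicate 1 and 2 and 4 without palbociclib replicate 1.

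**Figure D5:**
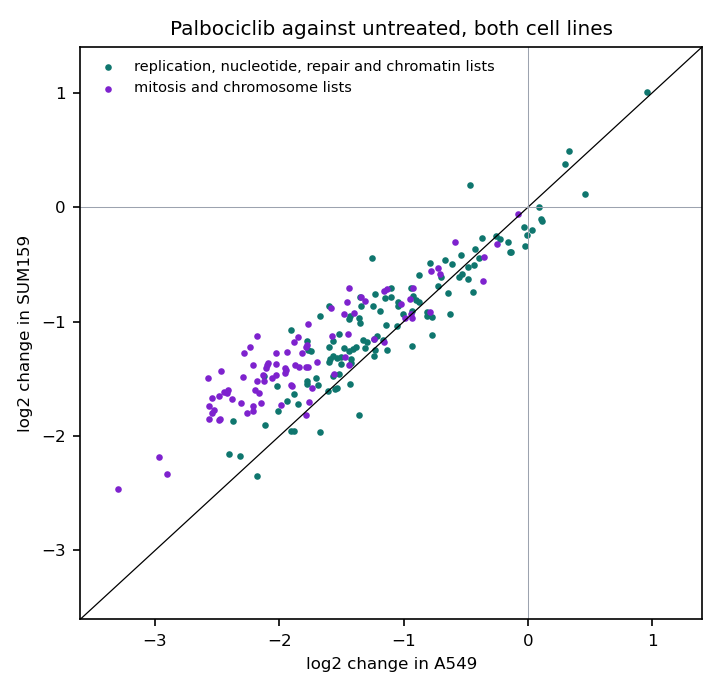
Log2 change of palbociclib minus untreated in SUM159 (vertical axis) against A549 (horizontal axis) for genes of the replication and mitosis lists, with the line of equal change. Most mitotic genes lie above the line, and their list medians were -2.06 and -1.95 in A549 against -1.44 and -1.39 in SUM159.

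KIF20A had a log2 change of -2.46 in SUM159, and the difference of 0.93 in the fit of both lines had an adjusted p-value of 1.55e-09 in edgeR's interaction test. E2F7 had a log2 change of -2.46 in A549 and -0.70 in SUM159. TUBA1B had -1.59 and -0.59. For GINS2 (difference 0.23), CCNE2 (0.18) and TYMS (-0.07) no difference passed the threshold, with SE of 0.09, 0.16 and 0.06. PCNA went the other way, with a larger fall in SUM159 (-1.81). CCND3 and MCL1, which rose in A549, had log2 changes of -0.03 and -0.13 in SUM159, and the differences passed the threshold. MXD4 had a log2 change of 1.74 in SUM159.

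The effect of palbociclib was last compared in A549 with indisulam present (both drugs against 3 µM indisulam). The 2 effects share no library. They differed in 556 of 15744 genes (3.53%), 234 with a higher and 322 with a lower log2 change when indisulam was present. Replication and repair genes were among the latter, with 48 of the 209 replication and mitosis genes changing by more in the downward direction and 5 by less. E2F1 had a log2 change of -1.19 without and -2.24 with indisulam (edgeR adjusted p of the difference 0.00084). EXO1 went from -1.85 to -2.88 and FAM111B, a protease of replication, from -2.22 to -3.63. KIF20A went the other way, from -3.30 to -2.69. CDKN1A had a log2 change of -0.17 without and 0.32 with indisulam, and the difference had an adjusted p-value of 0.021 in edgeR's test. Leaving out single libraries lowered the count of 556 to between 123 and 377 (123 without untreated replicate 1, 148 without palbociclib replicate 2, 156 without untreated replicate 2).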

How the data were processed

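Poly(A) RNA of A549 and SUM159 cells was sequenced from stranded libraries. The authors deposited unnormalised read counts for each Ensembl gene, made after alignment to GRCh38 with HISAT2 2.2.1 and, per the submitters' processing notes, HTSeq. The strand setting and annotation release are not given in the sources used here, so genes that overlap others are uncertain. Rows for reads in no gene, ambiguous or not unique (14.2% to 14.7% of a library in this comparison) were left out. Of 58676 genes, 58207 matched GENCODE release 44.

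The 8 A549 libraries were fitted together in edgeR 4.0.16 (R 4.3.3) with 1 coefficient per group, after filterByExpr and TMM scaling, with glmQLFit and glmQLFTest and Benjamini-Hochberg adjustment at 0.05. CPM values use TMM-scaled library sizes, and 3 counts, the floor, equal 0.0880 to 0.164 CPM (counting error only). Duplicates differed by more than sampling noise (chi-square per degree of freedom 2.27 untreated, 5.43 palbociclib). On simulated counts for this comparison (15371 genes), edgeR recovered 91% of genes moved by 1 and 70% of those moved by 0.5 on the log2 scale, with 5.29% of calls false. The simulation moved 200 genes, far fewer than the 6796 called in the data. None was at the lowest levels, so these shares do not cover tested genes under 1 CPM.

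The 40 gene lists and the members were chosen with earlier results of these data known. Genes were named by rule: all G1 and E2F members, up to 3 rises and 3 falls per other list and the 12 largest rises and falls at 5 CPM or more, the 5 most abundant changed by 2-fold, and the 5 largest differences each way. Some genes that the rule named are not reported here. ORC2, ORC4, ORC5, POLE4, RRM2B, RAD50, ASF1A, TOP2B and MYC were named after their values were seen. Alternatives were DESeq2 1.42.0, other filters and scaling, thinning, the replicate block and leaving out each library. Promoters are RefSeq windows on GRCh38.p14.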

Additional observations from a re-analysis of the deposited data

Results flagged for a closer look

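The response to palbociclib differed between SUM159 and A549 in 2274 genes by the interaction test of edgeR. Differences below are log2 changes in SUM159 minus those in A549 from the fit of both lines, whose scaling placed differences 0.10 above those between the fits of each line. Some rest on levels close to 0 in one line. ACSS3 (-4.89) was under 0.2 CPM in all SUM159 libraries, ADGRF5 (-3.27) had at most 16 counts in an A549 library, and HTRA3 (4.90) had at most 3. RAB38 (-1.97) was under 0.3 CPM in SUM159, and SEMA4G (2.41) and BCAN-AS1 (2.12) were under 2 CPM there. ASRGL1 (-1.70) was at or below 2.01 CPM in SUM159 and at 91.8 to 138 CPM in A549. IFI44 (-1.57) had 7 to 34 counts in A549 and was at 65.8 to 83.1 CPM in SUM159.

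PIF1 (2.59) and E2F7 (1.86) were expressed in both lines. PIF1 was at 12.7 and 12.9 CPM in untreated SUM159 and 7.50 and 8.87 CPM with palbociclib, against 22.9 and 25.3, then 2.92 and 2.64 CPM, in A549. E2F7 was at 70.9 and 77.5 CPM in untreated SUM159 and 45.7 and 45.8 CPM with palbociclib. Both thus fell in both lines and by less in SUM159.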

How the results depend on the processing

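The count of 6796 changed genes ran from 4728 to 7274 over the alternatives, and from 4954 to 5825 when 1 library was left out. DESeq2 called 2105 genes higher, against 3471. The count of genes whose palbociclib effect differed with indisulam fell from 556 to 343 with DESeq2 and to 123 to 377 without single libraries (148 without palbociclib replicate 2, 123 without untreated replicate 1, 156 without untreated replicate 2); the cause was not tested. In those runs the lone library was assumed to vary like the other groups. All 45 spindle and 26 mitotic kinase genes fell under every setting run.

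Genes that reversed were not called in any of those fits. CDK6 was at -0.00095 with only the 4 libraries and between -0.024 and 0.050 without single libraries. Without single libraries CDKN1C ran from -1.16 to 0.023, CDKN2A from -0.45 to 0.42 and LIN37 from -0.31 to 0.13. The gene CPM (carboxypeptidase M) was at -0.0012 with DESeq2, -0.0014 with no filter, -0.0090 with only the 4 libraries, and between -0.040 and 0.053 without single libraries.

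Same-numbered libraries did not deviate together (correlation -0.23 over genes of at least 5 CPM), so the numbers were not taken to pair them. With a replicate block 6609 genes changed, 3358 higher and 3251 lower, and with crossed numbers, a pairing tried after seeing the data, 7274 did. The shallowest library held 18306636 gene counts.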
